A study of Capra hircus with 20 samples.

Results

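The authors assembled 2120 long intergenic lncRNAs from goat libraries that no annotation held, and the 108 of them whose FPKM averaged 1 or more across all 20 libraries are described here. FPKM counts the sequenced fragments of a transcript relative to its length and to the size of the library. These 108 transcripts came from 93 loci and held 91.1% of the summed mean FPKM of all 2120. Their class was that of the authors' table, and their positions and sequences were not analysed here. Members were selected on their mean FPKM over all 4 groups, so the level itself is not a finding. The lncRNAs just inside the limit were LNC_002954 at 1.03 FPKM, LNC_012015 at 1.01 and LNC_011737 at 1.00, and those just outside were LNC_012440 at 0.995, LNC_001965 at 0.991 and LNC_009977 at 0.963.

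Long intergenic lncRNAs are transcripts without a coding frame that lie between protein-coding genes. Some act in the nucleus on nearby genes or on chromatin, others in the cytoplasm, where they can bind miRNAs or proteins, and most have no known role. They are known for lower levels and for a narrower range of cell types than mRNAs. In fat tissue, lncRNAs have been described that promote or restrain the conversion of preadipocytes into adipocytes, which is led by the factors PPARG and CEBPA. None of the 108 transcripts carries a gene name in the authors' table, and their function was not measured.

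The cells came from the longissimus dorsi muscle and the subcutaneous fat of 7-day-old male Jianzhou Daer goats (n = 5 animals) and were cultured in DMEM/F12 with 10% fetal bovine serum. IMPA and SPA were the intramuscular and subcutaneous preadipocytes at day 0, and IMA and SA were the intramuscular and subcutaneous adipocytes after 3 days of induction with oleic acid. No genotype other than the breed and no other treatment was given for any group. Each group had 5 libraries from strand-specific preparations of total RNA. The labels do not tie a library to an animal, so p-values measure the spread between libraries, which may be in part technical.

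All FPKM of 1 library added up to 527426 to 596669. Counts and transcript lengths were not used here, so fragment numbers were not computed and no interval for counting error is given. By the study's alignment summary, the mapped share of reads was higher in every IMPA than in every IMA library and in every SPA than in every SA library. It was also higher in every IMPA than in every SPA and in every IMA than in every SA library, so it cannot be told apart from the stage or from the cell type. The study's cleaning removed a larger share of raw reads in every subcutaneous library but SPA1 and SA5 than in any other library. This nearly follows the cell type, and its part in the depot differences was not tested. The intramuscular libraries held skeletal muscle RNA. Of 21 listed skeletal muscle genes, 18 were analysed. Their FPKM summed to between 4963 and 5828 in the IMPA libraries, between 15952 and 17002 in the IMA libraries, between 11.1 and 32.4 in the SPA libraries and between 11.8 and 14.3 in the SA libraries. All 18 were above 0 in the intramuscular groups. MYOG, the factor that starts muscle fibre formation, had a mean of 649 ± 66.9 FPKM (SD, n = 5) in IMPA and 0.124 ± 0.277 in SPA. PAX7, the factor of satellite cells, had a mean of 12.3 ± 2.13 in IMPA and 0.0120 ± 0.0185 in SPA. Of 11 listed adipocyte genes 10 were analysed, of which 2 were higher and 3 lower in every IMA than in every IMPA library, and 3 higher and 1 lower in every SA than in every SPA library. PLIN2, which coats lipid droplets, had a mean of 49.80 ± 12.5 FPKM in IMPA, 166 ± 23.0 in IMA, 257 ± 5.58 in SPA and 396 ± 17.6 in SA. CEBPA had means of 9.23 ± 0.428, 5.42 ± 0.628, 5.05 ± 0.368 and 3.91 ± 0.603 FPKM and SCD, a fatty acid desaturase, of 9.55 ± 0.733, 7.44 ± 0.628, 7.74 ± 0.868 and 3.35 ± 0.503 in the same order, and the means of ADIPOQ, PLIN1 and LEP were under 0.5 FPKM in all 4 groups. PPARG had means of 0.475 ± 0.0986, 0.364 ± 0.108, 0.624 ± 0.131 and 1.03 ± 0.252 FPKM in that order, with overlap between the stages in both cell types. CD36 had means of 0.252 ± 0.125, 4.91 ± 0.356, 0.0679 ± 0.0277 and 0.934 ± 0.360. In bulk RNA, fewer cells of a type and less RNA per cell cannot be told apart.

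The levels of the 108 lncRNAs spanned a wide range. A mean of at least 100 FPKM was reached by 4 of them, 8 lay between 10 and 100, 47 between 2 and 10 and 49 between 1 and 2. The most abundant, LNC_011544, was at 1347, 1625, 1369, 1424 and 1454 FPKM in IMPA, at 1959, 2223, 1734, 2192 and 2075 in IMA, at 2134, 2546, 2573, 2591 and 2589.5 in SPA and at 2032, 1413, 1452, 2082 and 1979 in SA. Its mean was lowest in IMPA, and the values of IMPA and SPA did not overlap. The next, LNC_004891, had a mean of 2017 ± 200.4 FPKM (SD, n = 5) in IMPA, 1575 ± 154 in IMA, 1395 ± 75.1 in SPA and 1709.6 ± 265 in SA, with its highest mean in IMPA, where LNC_011544 had its lowest. LNC_012343 and LNC_012244 followed with means over the 20 libraries of 293 and 134 FPKM, and LNC_012406 with 75.7.

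The 108 lncRNAs together summed to between 4335 and 4886 FPKM in IMPA, 4441 and 5096 in IMA, 4336 and 4720 in SPA and 4172 and 4481 in SA. This was 1.11% ± 0.0541 (SD, n = 5), 1.11% ± 0.0562, 1.14% ± 0.0483 and 1.01% ± 0.0529 of the FPKM sum without LNC_010228, an antisense lncRNA that is far more abundant than any other of the newly assembled lncRNAs. LNC_011544 and LNC_004891 made up 75.0% ± 1.38, 77.1% ± 1.94, 84.9% ± 1.43 and 81.6% ± 2.00 of the members' sum. Without this pair, the rest summed to 1153 ± 102 FPKM in IMPA, 1078 ± 134 in IMA, 692 ± 63.0 in SPA and 788 ± 97.9 in SA. In preadipocytes these sums did not overlap, with 1000.4 to 1275 FPKM in IMPA and 631 to 787 in SPA, and in adipocytes they did, with 897 to 1261 in IMA and 717 to 942 in SA.

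**Figure D1:**
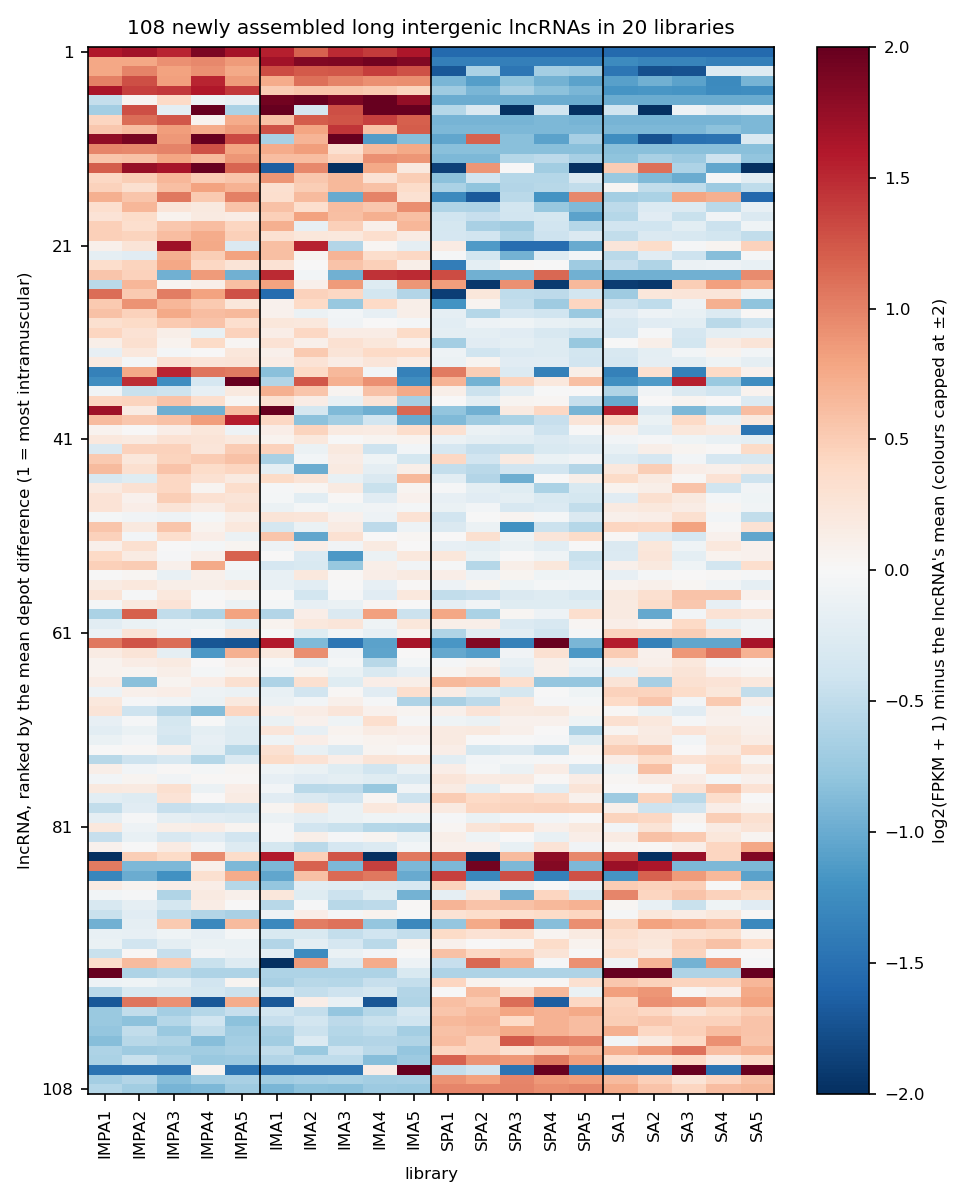
Each of the 108 lncRNAs (vertical axis, ranked by the mean of its depot differences at day 0 and day 3) in each of the 20 libraries (horizontal axis), coloured by log2(FPKM + 1) minus the mean of that lncRNA, with colours capped at 2 in either direction. Most of the first lncRNAs were high in the 10 intramuscular libraries and most of the last ones in the 10 subcutaneous libraries, and several single lines alternate between libraries of 1 group.

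Most of the 108 lncRNAs were listed above 0 in both cell types. All 20 libraries were above 0 for 84 of them, and 24 were at 0 in at least 1 library. The number listed above 0 in a library was 103 to 105 in IMPA and IMA, 96 to 100 in SPA and 99 to 100 in SA. A mean of at least 1 FPKM was reached in both cell types by 77, in intramuscular cells only by 20 and in subcutaneous cells only by 11. The latter 31 passed the limit through 1 cell type, so a depot difference among them follows in part from the selection. For 4 lncRNAs a single group mean reached 1 FPKM, that of IMA for LNC_007025 and LNC_010308 and that of SA for LNC_003193 and LNC_011737. They passed through that group, and 2 of them are among the calls in IMA against IMPA, 1 in IMPA against SPA, 3 in IMA against SA and 3 in the interaction. The highest of the 4 group means fell in IMPA for 33 lncRNAs, in IMA for 25, in SPA for 22 and in SA for 28.

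A lncRNA was called restricted to a cell type when its mean over the 10 libraries of that type was at least 1 FPKM and each of the other 10 libraries was under 0.1 FPKM. By this rule 6 of the 108 were restricted to intramuscular cells and 0 to subcutaneous cells, which is 5.56% and 0% of the members beside 1.49% and 0.147% of all 18414 tested transcripts. The rule itself chose these 6 by their depot values, so no test of the depot difference is given for them. The limit of 0.1 FPKM is absolute, and the levels of members and of all tested transcripts were not matched for these shares.

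LNC_005651 was at 7.92, 8.46, 7.45, 9.82 and 8.34 FPKM in IMPA and at 7.70, 5.71, 7.30, 6.77 and 8.06 in IMA, and was listed at 0 in all 10 subcutaneous libraries. The IMPA and IMA values overlapped, and the change of -0.22 ± 0.09 on the log2(FPKM + 1) scale (± SE) did not pass the test (limma, adjusted p = 0.11). LNC_007198, listed at 0 in the same 10 libraries, was at 2.48, 2.45, 2.55, 3.30 and 2.08 FPKM in IMPA and at 1.97, 2.17, 1.21, 1.80 and 2.01 in IMA. Its change of -0.34 ± 0.12 did not pass either (limma, adjusted p = 0.0584).

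LNC_008467 rose during induction. It was at 3.42, 3.43, 3.86, 4.001 and 3.65 FPKM in IMPA and at 7.25, 8.32, 8.38, 8.88 and 8.30 in IMA. It was listed at 0 in the 5 SPA libraries and was at 0.0819, 0.0354, 0.0330, 0 and 0 in SA. Every IMA value lay above every IMPA value, the ratio of the means was 2.24 and the change was 0.98 ± 0.06 on the log2 scale (limma, adjusted p = 4.23e-06). LNC_007025 was at 0.430, 1.07, 1.62, 0.863 and 0.804 FPKM in IMPA and at 6.63, 11.7, 6.36, 7.20 and 5.79 in IMA, and was listed at 0 in all 10 subcutaneous libraries. Its groups did not overlap either and the ratio of the means was 7.87. Because it passed the limit of 1 FPKM through IMA alone, this difference is a description with no test.

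LNC_005617 was at 1.57, 3.12, 3.50, 1.002 and 2.18 FPKM in IMPA and at 1.85, 3.40, 3.56, 3.91 and 3.35 in IMA, with at most 0.0264 in a subcutaneous library. LNC_010045 was at 1.70, 1.87, 2.31, 2.12 and 2.35 in IMPA and at 3.51, 2.21, 4.03, 1.80 and 3.30 in IMA, with at most 0.0480 in a subcutaneous library. For both, the IMPA and IMA values overlapped and the changes of 0.40 ± 0.24 and 0.34 ± 0.16 did not pass the test (limma, adjusted p = 0.234 and 0.143).

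The skeletal muscle genes given above were high in the same 10 libraries, with a summed FPKM of at least 4963 in each intramuscular and at most 32.4 in each subcutaneous library. Their sum was also higher in every IMA than in every IMPA library, as were LNC_008467 and LNC_007025. The other restricted lncRNAs had no called change. Among these, the means of LNC_005651 and LNC_007198 were lower in IMA and those of LNC_005617 and LNC_010045 higher. The part of the muscle genes in the restriction and in the higher IMA values was not tested. By the same rule 242 of 16706 tested mRNAs (1.45%) and 19 of 1080 newly assembled intronic lncRNAs (1.76%) were restricted to intramuscular cells. Requiring 0 in every library of the other type left LNC_005651, LNC_007025 and LNC_007198. A ratio of the means of at least 10 instead gave 7 lncRNAs on the intramuscular side, with LNC_000560 added, and 1 on the subcutaneous side, LNC_002954. LNC_002954 was at 1.75, 1.49, 3.20, 2.65 and 2.60 FPKM in SPA and at 0.736, 1.03, 1.38, 2.40 and 1.65 in SA, and at most 0.489 in an intramuscular library.

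**Figure D2:**
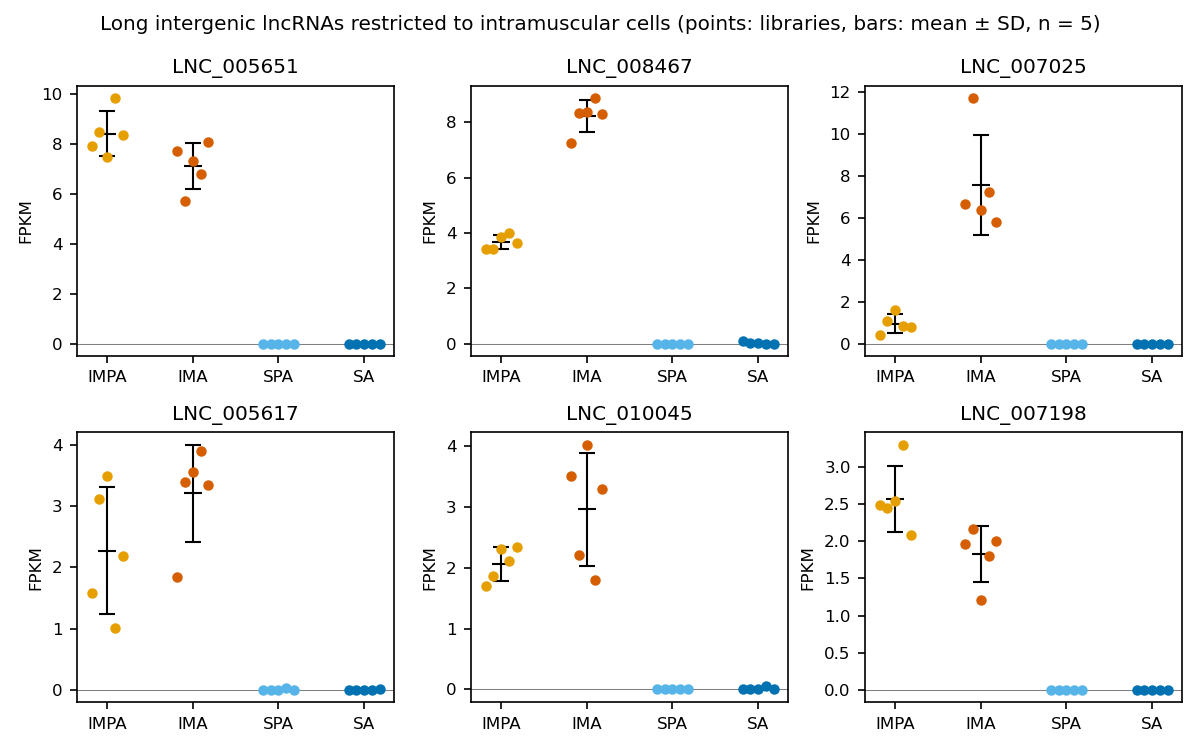
FPKM (vertical axis) of the 6 lncRNAs restricted to intramuscular cells in the 4 groups (horizontal axis), with 1 point per library and bars for the mean ± SD of 5 libraries. All subcutaneous points lie at or near 0, and LNC_008467 and LNC_007025 are the panels in which every IMA point is above every IMPA point.

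The depot differences were tested at each stage. In preadipocytes, 43 of the 108 lncRNAs were higher in IMPA than in SPA and 19 lower (limma, adjusted p under 0.05), which is 39.8% and 17.6% of the members beside 29.3% and 21.6% of all tested transcripts. The groups did not overlap for 48 lncRNAs, 44.4% beside 42.1% of all tested transcripts. The median difference, IMPA minus SPA, was 0.21 on the log2 scale over the members and 0.06 over all tested transcripts. In adipocytes, 24 were higher in IMA than in SA and 26 lower, which is 22.2% and 24.1% beside 19.3% and 27.1%. There 41 lncRNAs did not overlap, 38.0% beside 37.8%, and the median difference was -0.08 over the members and -0.09 over all tested transcripts. With the mapped share added as a covariate, 7 lncRNAs were called in preadipocytes, all of them also called without it. In adipocytes 28 were called, of which 26 were also called without it. All 8 listed genes of cell division were higher in every IMPA than in every SPA library and lower in every IMA than in every SA library, and their part in the depot differences was not tested.

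At both stages 21 lncRNAs were higher in intramuscular cells, 19.4% of the members beside 14.5% of all tested transcripts, and 13 were higher in subcutaneous cells, 12.0% beside 13.8%. All 10 intramuscular libraries lay above all 10 subcutaneous ones for 17 lncRNAs, 15.7% of the members beside 10.5% of all tested transcripts, and below them for 10, 9.26% beside 8.63%. A difference was called at day 0 alone for 18 lncRNAs higher in IMPA (16.7% beside 10.8%) and for 6 higher in SPA (5.56% beside 7.12%). At day 3 alone it was called for 3 higher in IMA (2.78% beside 4.13%) and for 9 higher in SA (8.33% beside 9.22%). For 34 no difference was called at either stage (31.5% beside 35.8%), and for 4 it was called in opposite directions (3.70% beside 4.76%). The 77 lncRNAs that reached 1 FPKM in both cell types are set beside the 16096 tested transcripts that did so. Of the 77, 27 were higher and 14 lower in IMPA than in SPA, 35.1% and 18.2% beside 27.1% and 21.8%, and 8 were higher and 18 lower in IMA than in SA, 10.4% and 23.4% beside 16.1% and 28.1%.

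Of the lncRNAs measured in both cell types, LNC_008642 had one of the smallest p-values at both stages. It was at 13.4, 10.9, 11.3, 13.0 and 11.3 FPKM in IMPA and at 5.55, 5.76, 5.79, 5.63 and 5.30 in IMA. In the subcutaneous cells it was at 1.81, 1.44, 1.96, 1.62 and 1.44 in SPA and at 1.04, 1.07, 1.03, 0.930 and 0.958 in SA. The 4 groups did not overlap and ran in the order IMPA, IMA, SPA and SA. The ratio of the means was 7.23 at day 0 (log2 difference 2.29 ± 0.08, limma adjusted p = 5.52e-09) and 5.58 at day 3 (1.72 ± 0.06, adjusted p = 3.99e-09).

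LNC_000560 was at 4.99, 6.31, 4.29, 7.59 and 4.38 FPKM in IMPA, at 3.98, 5.40, 4.93, 4.63 and 4.68 in IMA, at 0.580, 0.398, 0.715, 0.554 and 0.430 in SPA and at 0.407, 0.541, 0.430, 0.241 and 0.569 in SA. It was 10.3 times higher in IMPA than in SPA and 10.8 times higher in IMA than in SA by the means, with no overlap at either stage and no called stage change. It reached 1 FPKM in intramuscular cells only, so these ratios are a description with no test. LNC_004888, the sixth by mean level, had means of 73.1 ± 5.24 FPKM in IMPA, 99.4 ± 4.54 in IMA, 19.96 ± 6.55 in SPA and 20.7 ± 11.7 in SA, a log2 difference of 1.88 ± 0.21 at day 0 (limma, adjusted p = 2.90e-05) and of 2.38 ± 0.31 at day 3 (adjusted p = 0.000124). LNC_009670 was at 8.52 ± 0.947, 8.61 ± 1.297, 2.60 ± 0.434 and 2.69 ± 0.429 FPKM in the same order. It differed between depots by 1.40 ± 0.10 at day 0 and 1.38 ± 0.11 at day 3 (limma, adjusted p = 1.05e-06 and 2.70e-06) and had no called stage change.

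On the subcutaneous side, LNC_005329 and LNC_005330, which share the locus XLOC_068435, were named for the smallest p-values at day 0. LNC_005329 was at 6.60, 6.55, 6.66, 6.36 and 6.49 FPKM in SPA and at 5.46, 4.72, 4.22, 4.94 and 5.02 in SA, and at 1.60, 1.38, 1.01, 1.06 and 1.35 in IMPA and 1.06, 1.19, 1.17, 1.33 and 1.32 in IMA. LNC_005330 was at 4.77, 4.41, 5.06, 4.66 and 4.53 in SPA and at 3.79, 3.31, 2.70, 3.18 and 3.65 in SA, and at 0.919, 1.07, 0.704, 0.924 and 0.974 in IMPA and 0.915, 0.952, 0.992, 0.921 and 0.958 in IMA. Both were higher in every subcutaneous than in every intramuscular library. For LNC_005329 IMPA minus SPA was -1.73 ± 0.08 (limma, adjusted p = 3.31e-08) and IMA minus SA -1.41 ± 0.08 (adjusted p = 1.47e-07). LNC_005330 passed the limit of 1 FPKM through the subcutaneous cells only, so its difference is given without a test.

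Part of the stromal progenitor markers were higher on the subcutaneous side. Of 9 listed genes, 5 were lower in IMPA than in SPA and 5 lower in IMA than in SA with no overlap, and 0 were higher. Over all tested transcripts 42.1% and 37.8% did not overlap, in either direction. Decorin (DCN), a matrix proteoglycan, had means of 660.5 ± 103 FPKM in IMPA, 535 ± 51.4 in IMA, 5441 ± 135 in SPA and 4120.3 ± 193 in SA. The collagen gene COL3A1 was not lower in intramuscular cells, with means of 4444 ± 840, 5242 ± 248, 4303 ± 116 and 4975 ± 138 in the same order. The part of these cells in the subcutaneous differences was not tested.

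**Figure D3:**
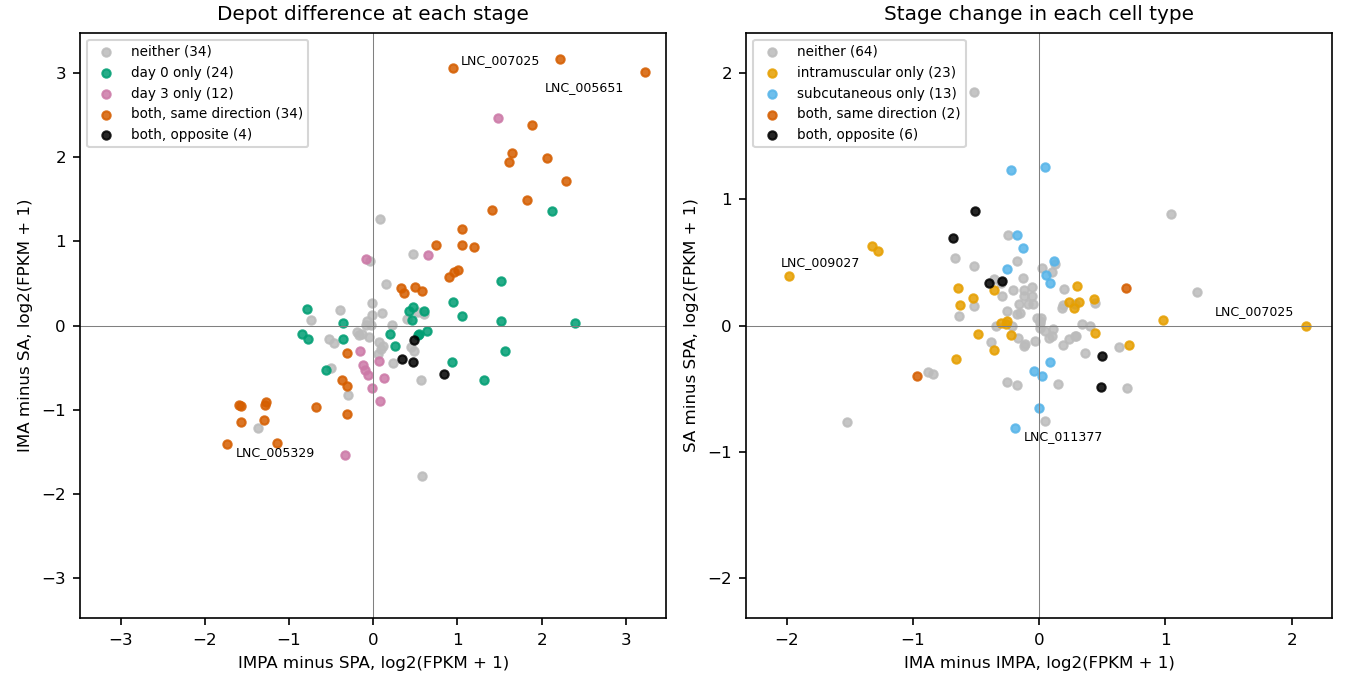
Left, the depot difference of each of the 108 lncRNAs in preadipocytes (horizontal axis) and in adipocytes (vertical axis). Right, the stage change in intramuscular (horizontal axis) and in subcutaneous cells (vertical axis). All values are on the log2(FPKM + 1) scale, colours give the comparisons in which limma's adjusted p was under 0.05, and the numbers in the legends count lncRNAs. On the left 34 lncRNAs were called in the same direction at both stages, and on the right 2 in the same and 6 in opposite directions in both cell types.

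During induction, 12 of the 108 lncRNAs rose and 19 fell in IMA against IMPA (limma, adjusted p under 0.05), 11.1% and 17.6% of the members beside 11.7% and 20.9% of all tested transcripts. The groups did not overlap for 24, 22.2% beside 25.8%. The median change was -0.08 on the log2 scale over the members and over all tested transcripts. In SA against SPA 13 rose and 8 fell, 12.0% and 7.41% beside 14.6% and 11.3%, and 16 did not overlap, 14.8% beside 22.2%. The median change was 0.10 over the members and 0.005 over all tested transcripts. Scaled to a fixed sum without LNC_010228, 10 rose and 10 fell in SA. With the mapped share as a covariate limma called 0 lncRNAs in IMA against IMPA, where 9 had an unadjusted p under 0.05 and the smallest adjusted p was 0.0628. In SA against SPA it called 5, LNC_011377 and LNC_006888 among them, and 3 of the 5 were also called without the covariate. The estimates did not all shrink: with the covariate the change in IMA was -0.91 for LNC_008642 and 1.09 for LNC_008467, beside -0.97 and 0.98 without it, and 0.06 for LNC_004888 beside 0.44.

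In the intramuscular cells the smallest p-value belonged to LNC_008642. Every IMA value given above lay below every IMPA value, and the mean was 2.13 times lower in IMA (log2 change -0.97 ± 0.06, limma adjusted p = 3.68e-06). LNC_012343 was at 421, 389, 477, 430.0 and 442 FPKM in IMPA and at 297, 259, 269, 250.0 and 305 in IMA. All IMA values were lower, and the change was -0.64 ± 0.07 (limma, adjusted p = 0.000102). LNC_004888 was at 69.5, 80.8, 70.7, 76.3 and 68.5 FPKM in IMPA and at 100.3, 95.38, 95.8, 107 and 98.8 in IMA. It rose by 0.44 ± 0.05 with no overlap (limma, adjusted p = 0.000172), and this call was lost with all 4 groups in 1 fit (adjusted p = 0.25). LNC_008467 and LNC_007025, described above, completed the 5 smallest p-values by which lncRNAs were named.

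In the subcutaneous cells LNC_011377 had the smallest p-value. It was at 6.56, 6.001, 6.09, 6.35 and 6.59 FPKM in SPA and at 3.84, 3.23, 2.44, 3.45 and 3.01 in SA, with no overlap, and its mean was 1.98 times lower in SA (log2 change -0.81 ± 0.09, limma adjusted p = 0.000134). LNC_010663 was at 3.82, 2.99, 2.89, 3.39 and 2.78 in SPA and at 1.70, 1.58, 1.81, 1.41 and 1.75 in SA and its mean was 1.92 times lower in SA (-0.65 ± 0.09, adjusted p = 0.000432). In the intramuscular libraries the latter did not exceed 0.572 FPKM.

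LNC_006888 and LNC_002884 rose in SA. LNC_006888 was at 5.93, 5.59, 6.36, 6.39 and 5.40 FPKM in SPA and at 10.1, 12.4, 9.53, 9.34 and 9.82 in SA (log2 change 0.69 ± 0.08, limma adjusted p = 0.000163). LNC_002884 was at 1.36, 1.40, 1.72, 1.77 and 1.65 in SPA and at 2.81, 3.15, 3.94, 3.94 and 2.55 in SA (0.72 ± 0.11, adjusted p = 0.00116). Neither overlapped between the groups. LNC_008642 fell here too, with a mean 1.65 times lower in SA (-0.40 ± 0.07, adjusted p = 0.0018).

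The genes of cell division moved with the subcutaneous stage. All 8 listed genes, among them MKI67, TOP2A and CDK1, were higher in every SA than in every SPA library, and their summed FPKM was 62.8 to 72.3 in SPA and 295.7 to 333.2 in SA. In the intramuscular cells it was 146.6 to 178.1 in IMPA and 127.9 to 155.7 in IMA. Their part in the changes of the lncRNAs was not tested.

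Of the lncRNAs called in either stage comparison, 8 were called in both, 25.8% of the 31 called in intramuscular and 38.1% of the 21 called in subcutaneous cells. LNC_000587 rose in both and LNC_008642 fell in both, 1.85% of the members beside 6.26% of all tested transcripts, while 6 changed in opposite directions, 5.56% beside 5.75%. The rise of LNC_000587 in SA lost its call with no filter on low values (adjusted p = 0.062). The interaction of stage and cell type tested the difference of the changes directly. It was called for 39 lncRNAs, with the intramuscular change above the subcutaneous one for 12 and below it for 27, 11.1% and 25.0% of the members beside 11.2% and 19.8% of all tested transcripts. The median difference was -0.23 over the members and -0.09 over all tested transcripts. The split moved with the scaling, to 12 above and 17 below with upper quartiles, 13 and 16 with quantile normalization and 13 and 17 with a fixed sum. The interaction was called for all 8 lncRNAs called in both cell types, for 12 of 23 called in intramuscular cells only, for 9 of 13 called in subcutaneous cells only and for 10 of 64 called in neither. With the mapped share as a covariate it was called for 3, of which 2 were also called without it. These were LNC_007025, LNC_007198 and LNC_008467, all restricted to intramuscular cells, so their calls follow in part from the selection.

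Opposite changes were found at high and at low levels. LNC_011544, whose values are given above, rose by 0.49 ± 0.08 in IMA (limma, adjusted p = 0.000895) and changed by -0.49 ± 0.13 in SA (adjusted p = 0.0203). The difference of the changes was 0.98 ± 0.15 (adjusted p = 5.14e-05), and the depots, -0.78 apart in preadipocytes (adjusted p = 4.99e-06), were 0.20 apart in adipocytes (adjusted p = 0.239). LNC_009464 was at 6.36, 7.58, 6.05, 5.66 and 5.39 FPKM in IMPA and at 8.30, 9.95, 8.80, 9.57 and 8.96 in IMA, and at 11.2, 11.7, 11.7, 12.0 and 12.5 in SPA and 8.83, 10.7, 10.1, 10.7 and 9.20 in SA. It rose in IMA (0.49 ± 0.08, limma adjusted p = 0.0016) and fell in SA (-0.24 ± 0.06, adjusted p = 0.0129), and the interaction was 0.73 ± 0.10 (adjusted p = 1.74e-05).

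The reverse was seen for LNC_000326, LNC_006888, LNC_002885 and LNC_002978, which fell in IMA and rose in SA. LNC_000326 was at 14.0, 12.6, 13.9, 12.7 and 14.2 FPKM in IMPA and at 10.5, 11.0, 10.7, 10.8 and 11.1 in IMA, and at 10.3, 10.9, 8.88, 9.28 and 7.80 in SPA and 13.0, 13.3, 12.7, 11.7 and 10.8 in SA. Its changes were -0.29 ± 0.04 and 0.36 ± 0.09 (limma, adjusted p = 0.000723 and 0.0154) and its interaction -0.65 ± 0.10 (adjusted p = 4.92e-05). LNC_006888 was at 13.9, 10.9, 13.2, 11.4 and 12.0 FPKM in IMPA and at 7.45, 3.82, 9.88, 7.43 and 9.35 in IMA, a change of -0.68 ± 0.20 (limma, adjusted p = 0.0263) that lost its call without IMPA1 or without IMPA3, with an adjusted p of at most 0.0604, and with no filter on low values (adjusted p = 0.058). Its interaction was -1.37 ± 0.22 (adjusted p = 9.29e-05).

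LNC_002885 had an interaction of -1.42 ± 0.27 (limma, adjusted p = 0.000417) and LNC_002978 of -0.73 ± 0.13 (adjusted p = 0.000328). The fall of LNC_002885 in IMA lost its call when IMPA1, IMPA3, IMA1 or IMA4 was left out and with no filter on low values (adjusted p = 0.056), and the rise of LNC_002978 in SA when any 1 of 8 of the 10 libraries was left out, with an adjusted p of at most 0.0834. The latter call was also lost with quantile normalization (limma, adjusted p = 0.054), a fixed sum without LNC_010228 (0.068) and no filter on low values (0.068). A minimum mean of 0.1 FPKM (0.059) and the replicate block (0.05) lost it too. LNC_002885 and LNC_002978 were named for these opposite changes after their values were seen, as were LNC_006888 in IMA and LNC_000587. LNC_012343 fell in IMA and had 249, 189, 222, 213 and 168 FPKM in SPA and 240.2, 260.4, 254, 232 and 287 in SA, a change of 0.30 ± 0.10 that did not pass the test (limma, adjusted p = 0.0607), and its interaction was -0.94 ± 0.13 (adjusted p = 1.16e-05). LNC_008467 had an interaction of 0.94 ± 0.09, which with subcutaneous values at or near 0 is close to its intramuscular change. It reached 1 FPKM in intramuscular cells only, so its interaction is a description with no test.

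**Figure D4:**
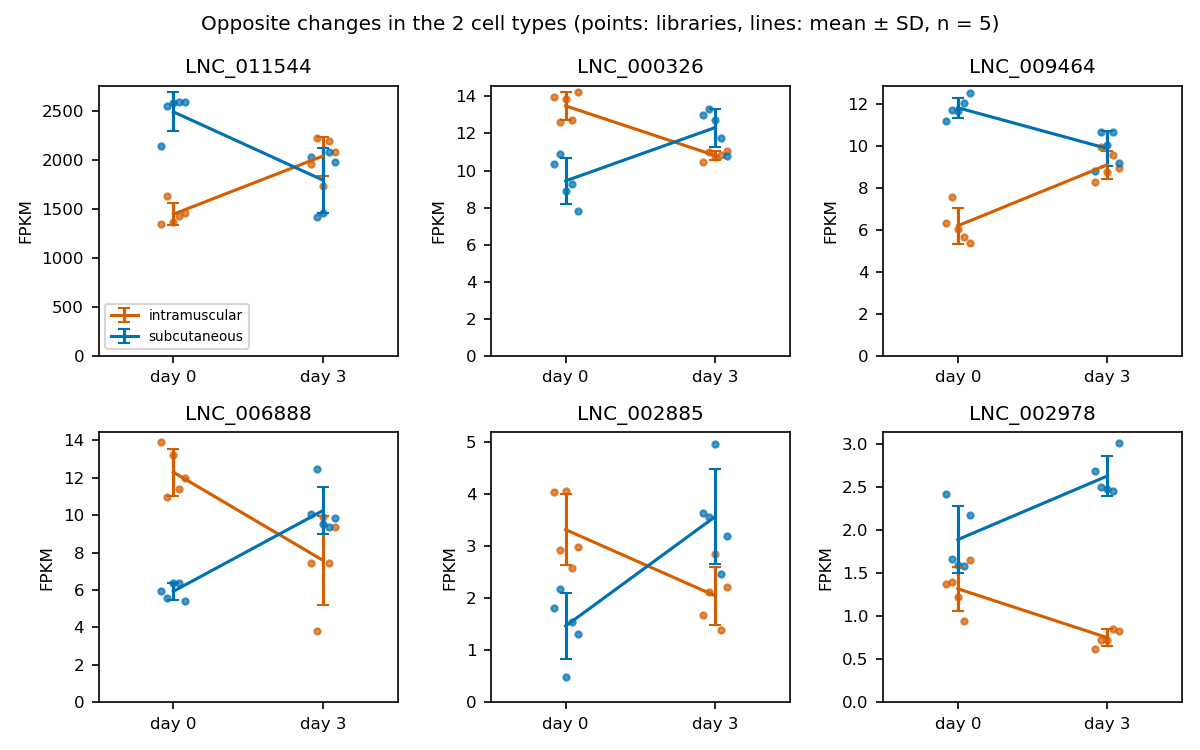
FPKM (vertical axis) of the 6 lncRNAs whose stage changes were called in opposite directions in the 2 cell types, at day 0 and day 3 (horizontal axis), with 1 point per library and lines through the mean ± SD of 5 libraries. LNC_011544 and LNC_009464 rose in intramuscular and fell in subcutaneous cells, and the other 4 did the reverse.

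Several of the 108 lncRNAs are alternative transcripts of 1 locus. Of the 93 loci, 12 held 2 or more members, 27 members in all: 10 loci held 2, 1 held 3 and 1 held 4. The spread between libraries of 1 group was wider for these 27, with a median coefficient of variation of 61.5%. For the 81 that were the only member of their locus it was 17.8%. Some of the latter shared their locus with transcripts that were not members: of the 93 loci, 59 held 1 transcript and 34 several. In 9 of the 12 loci every member had a wider median spread than the summed FPKM of the locus. How StringTie divided reads between overlapping transcripts of a locus cannot be read from the values.

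At XLOC_039260, LNC_003058 was at 4.49, 0.887, 0, 4.31 and 4.52 FPKM in IMA, while LNC_003059 was at 0, 3.95, 4.17, 0.421 and 0. The libraries in which one was high were those in which the other was low or at 0, and neither transcript was called in any comparison. The sum over the locus was 2.55 ± 0.296 FPKM in IMPA, 4.55 ± 0.256 in IMA, 3.82 ± 0.522 in SPA and 2.82 ± 0.357 in SA (SD, n = 5). In a fit of FPKM summed per locus it rose by 0.65 ± 0.06 in IMA (limma, adjusted p = 8.28e-06) and fell by 0.33 on the log2 scale in SA (adjusted p = 0.00805). The interaction was 0.98 ± 0.11 (adjusted p = 2.26e-07).

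XLOC_036548 gave the same kind of values. LNC_002860 was at 0, 6.10, 0, 5.64 and 0 FPKM in SPA and LNC_002861 at 5.93, 0.0165, 6.28, 0.0239 and 5.06, so that in each SPA library one of them held nearly all of the locus. Their sum was 4.35 ± 0.829 FPKM in IMPA, 6.06 ± 0.214 in IMA, 5.81 ± 0.480 in SPA and 5.07 ± 0.526 in SA. The sum rose by 0.41 ± 0.10 in IMA (limma, adjusted p = 0.00366) and its interaction was 0.58 ± 0.12 (adjusted p = 0.000512), although neither transcript was called. Sums and transcripts were adjusted over different sets, so their calls are not directly comparable.

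XLOC_111565, with 4 members among 9 transcripts, summed over all 9 to 29.4 ± 4.13 FPKM in IMPA, 12.3 ± 5.72 in IMA, 10.3 ± 3.58 in SPA and 19.3 ± 5.94 in SA. It fell in IMA (-1.29 ± 0.24, limma adjusted p = 0.000739) and rose in SA (0.85 ± 0.22, adjusted p = 0.00826). Among its members LNC_009027 was at 14.4, 21.4, 19.99, 29.7 and 13.9 FPKM in IMPA and at 1.13, 11.9, 0.479, 10.2 and 6.64 in IMA, and its change of -1.98 ± 0.61 (adjusted p = 0.0318) lost its call without IMPA2, IMPA3, IMPA4 or IMA1. LNC_009021 was at 6.23, 8.53, 0, 0 and 7.86 in SA and was listed at 0 in all 5 SPA libraries, a difference that did not pass the test (adjusted p = 0.086).

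XLOC_087137 and XLOC_109120 followed the same direction as XLOC_111565, with interactions of -1.29 ± 0.24 and -1.70 ± 0.26 for their sums (limma, adjusted p = 0.000139 and 1.73e-05). At XLOC_153204 the sum itself varied widely. LNC_012406 was at 27.2, 110.1, 38.5, 182 and 28.2 FPKM in IMPA, at 199.9, 34.5, 109, 212 and 301 in IMA, at 29.3, 35.9, 8.84, 33.6 and 9.31 in SPA and at 33.3, 3.42, 41.4, 37.0 and 39.4 in SA. It was higher in IMA than in SA by 2.46 ± 0.75 (adjusted p = 0.0213), with overlap between the groups, and this call was lost without IMA5 (adjusted p = 0.0519). The sum of the locus was higher in IMA than in SA by 1.86 ± 0.83, which did not pass the test (limma, adjusted p = 0.0602). LNC_012407 was at 0.999, 1.13, 0, 76.9 and 0 in SPA and at 3.00e-06, 0, 76.0, 0 and 91.1 in SA and passed no test. Not all loci behaved so. At XLOC_068435 LNC_005329 held on average between 56.05% and 59.5% of the locus in the 4 groups, and at XLOC_042392 LNC_003292 held between 60.2% and 60.5%. At XLOC_106472 the share of LNC_008398 ran from 2.19% to 95.8% of the locus within the 5 IMPA libraries, and the sum of the locus from 2.88 to 8.33 FPKM.

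**Figure D5:**
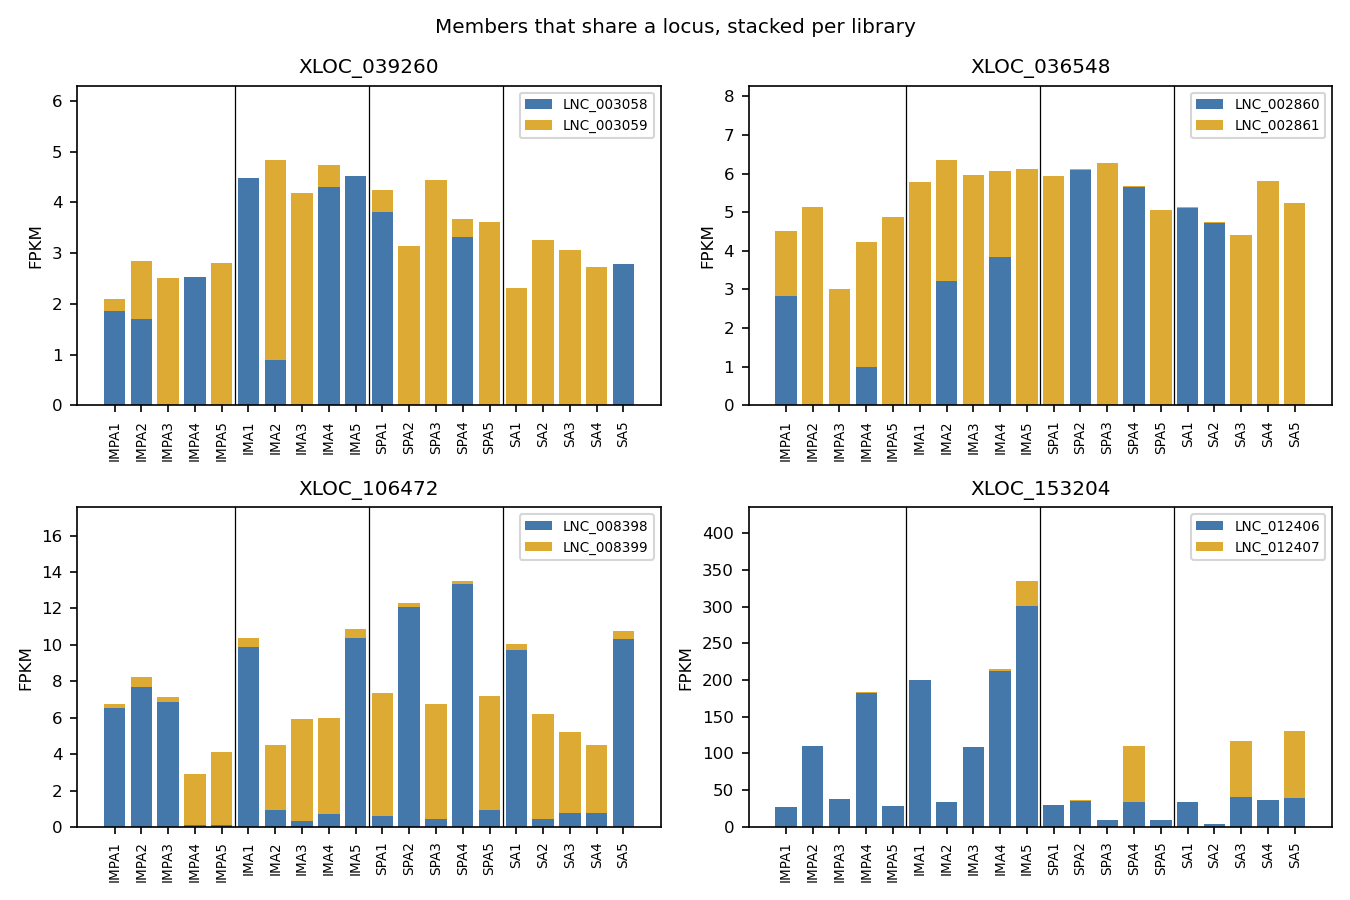
FPKM per library (vertical axis) in the 20 libraries (horizontal axis) of the members of 4 loci, stacked so that the bar height is their sum. At XLOC_039260 and XLOC_036548 the bars are of like height within a group while the colour that fills them changes from library to library, and at XLOC_153204 the height itself varied.

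The study names 7 of the 108 lncRNAs or lists genes near them, and 5 of these (LNC_000560, LNC_004888, LNC_005330, LNC_008467 and LNC_009670) are described above. The other two, LNC_006887 and LNC_011377, have listed neighbours. LNC_006887, in the same locus as LNC_006888, was at 0.0834, 0.0269, 1.12, 1.73 and 0.00249 FPKM in SPA and at 2.14, 1.35, 3.02, 3.70 and 2.59 in SA. The groups overlapped, and the rise was 1.26 ± 0.32 (limma, adjusted p = 0.0183). Its call was lost when SPA1 and SA5 were left out together (adjusted p = 0.079). The sum of the locus rose by 0.89 ± 0.09 in SA (adjusted p = 1.25e-05) and fell in IMA, with -0.56 ± 0.12 (adjusted p = 0.00182).

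Of 9 genes listed near LNC_006887, 7 were tested, and BTBD18 and LOC108637596 were below the limit of 1 FPKM. In SA against SPA only 1 of the 7 was called: CTNND1, which encodes the cadherin-binding protein p120 catenin, fell by 0.55 on the log2 scale (limma, adjusted p = 0.0236). In IMA against IMPA only ZDHHC5, a palmitoyltransferase, was called, with -0.37 ± 0.08 (adjusted p = 0.00414). SERPING1, the C1 inhibitor of complement, was the listed neighbour with the widest depot gap, at 4.78 ± 1.63 FPKM in IMPA, 2.96 ± 0.587 in IMA, 23.3 ± 6.98 in SPA and 26.0 ± 8.63 in SA (IMPA minus SPA -2.06 ± 0.25, adjusted p = 6.99e-05). CLP1, MED19, TMX2 and YPEL4 had no called stage change. ZMIZ1, a coactivator of transcription listed near LNC_011377, was at 1.25 ± 1.05 FPKM in SPA and 1.37 ± 0.249 in SA, and its change of 0.22 ± 0.33 did not pass the test (adjusted p = 0.693) where LNC_011377 fell.

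The share of the 108 lncRNAs called in either direction can be set beside that of the other classes. In IMPA against SPA 57.4% of the 108 were called, against 53.3% of 1080 intronic and 56.2% of 48 antisense newly assembled lncRNAs, 46.7% of 360 annotated lncRNAs and 50.7% of 16706 mRNAs. In IMA against IMPA the shares were 28.7%, 23.0%, 31.2%, 30.3% and 33.4%, and in SA against SPA 19.4%, 28.0%, 20.8%, 21.7% and 26.0%. By direction, 39.8% of the 108 were higher in IMPA than in SPA, against 41.5%, 37.5%, 17.8% and 28.6% of the other classes in the same order. Lower were 17.6% of the 108, against 11.9%, 18.8%, 28.9% and 22.1%. The median interaction was -0.23 for the 108, against -0.36, -0.19, 0.06 and -0.07. In IMPA against SPA, and in the sign of the median interaction, the direction was thus shared with the other newly assembled lncRNAs. The interaction calls were not shared by all of them. They were above for 11.1% and below for 25.0% of the 108. For the intronic lncRNAs these shares were 3.52% and 34.8%, and for the antisense lncRNAs 20.8% and 10.4%. No test of these differences between classes was made.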

How the data were processed

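Goat intramuscular and subcutaneous preadipocytes and adipocytes (4 groups of 5 libraries, grouped by their labels) were profiled by strand-specific total RNA sequencing. Per the submitters' processing notes HISAT2 2.0.4, StringTie 1.3.1 and GATK 2.6-5 were used. The authors mapped reads to the goat assembly ARS1, assembled transcripts with Scripture and Cufflinks, calculated FPKM with StringTie, Ballgown and Cuffdiff, and deposited FPKM per transcript and library, which were analysed as deposited. The role of GATK was not given in the sources used here. The authors' class of each transcript was taken over.

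From these values, log2(FPKM + 1) was tested for the 18414 transcripts that averaged 1 FPKM or more, with limma 3.58.1 (R 4.3.3, moderated test with a mean trend, 10 libraries per comparison and 20 for the interaction). P-values were adjusted by Benjamini-Hochberg over all 18414, and an adjusted p under 0.05 is called. Fold values are ratios of mean FPKM, and log2 differences are on the log2(FPKM + 1) scale, which understates changes of low transcripts. Figures and counts were made with Python 3.11.15. The fit was tested on simulated data. Genes were named by rule: the 5 smallest p-values per comparison without overlap of the groups, the 5 highest means, the restricted lncRNAs, those the study names, those next to the limit, and members of 1 locus. Members and lists were chosen with earlier results of these data known. Alternatives were other pseudocounts, filters and scalings, the replicate number as a block, sums per locus and the mapped share as a covariate. Each library was also left out in turn, and SPA1 and SA5 together.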

Additional observations from a re-analysis of the deposited data

Results flagged for a closer look

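In groups of 5 libraries, a library was singled out where its gap to the nearest other exceeded 0.71 of the range of the group. Of 88 groups of named lncRNAs examined 8 held such a library. Chance gives about 1 in 20, but not where the other libraries are at or near 0, as for the last 3 below, since there a single small value meets the limit by construction. LNC_007025 was at 11.7 FPKM in IMA2, where the other IMA libraries lay between 5.79 and 7.20. LNC_006888 was at 12.4 FPKM in SA2, above the others. LNC_011544 was low in SPA1 at 2134 FPKM, and LNC_012406 was low in SA2 at 3.42 FPKM. LNC_005617 was low in IMA1 at 1.85 FPKM, and it was above 0 in SPA4 at 0.0264 and in SA5 at 0.0176 FPKM. LNC_010045 was above 0 in SA4 at 0.0480 FPKM.

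For 5 named lncRNAs the stage change differed between the cell types by limma's interaction term, given as the intramuscular minus the subcutaneous change in log2(FPKM + 1). It was -0.94 for LNC_012343, 0.73 for LNC_009464 and -0.65 for LNC_000326. The values of 0.94 for LNC_008467 and 2.11 for LNC_007025 are given as descriptions. LNC_008467 reached 1 FPKM in intramuscular cells only, and LNC_007025 passed the limit through IMA alone.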

How the results depend on the processing

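The counts of called lncRNAs depended most on the mapped share of reads. With it as a covariate 0 were called in IMA against IMPA (9 at an unadjusted p under 0.05 by limma), 5 in SA against SPA, 7 in IMPA against SPA, 28 in IMA against SA and 3 for the interaction, beside 31, 21, 62, 50 and 39 without it. Of 25 results for named lncRNAs, 14 kept their call under this covariate and 11 lost it. Some lost calls nearly kept their size, such as LNC_008642 in IMA (-0.91 beside -0.97 on the log2 scale). Others shrank, in part as LNC_002884 in SA (0.57 beside 0.72) or nearly to 0 as LNC_004888 in IMA (0.06 beside 0.44). The mapped share is confounded with the stage and with the cell type, so its part cannot be told apart. FPKM summed per locus gave 38 called loci of 93 in SA against SPA. The share called over all loci of the series was not computed. Of the 59 loci with 1 transcript, where summing changes no value, 21 were called in this fit and 11 in the fit of transcripts. The higher count therefore does not come from the summing alone. Requiring 0 in every library of the other cell type left 3 restricted lncRNAs. Leaving out 1 library gave 25 to 32 calls in IMA against IMPA, 18 to 23 in SA against SPA, 58 to 62 in IMPA against SPA, 46 to 51 in IMA against SA, 30 to 38 for the interaction and 6 to 6 restricted lncRNAs. With the replicate block the counts were 27, 14, 60, 46 and 32, and among the calls this lost in SA were those of LNC_011544 (limma, adjusted p = 0.065), LNC_002885 (0.064) and LNC_000587 (0.06). Same-numbered libraries did not deviate together. They correlated between -0.041 and 0.059 in their deviations from the group means, and at most 2 of 5 correlated best with their own number. Whether they came from the same animal cannot be read from these values. The fragments behind low values were not computed.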
